A study of Mus musculus with 6 samples.

Results

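The transcripts of mitochondrial and peroxisomal fatty acid oxidation were followed in Hepa1-6, a mouse hepatoma line from strain C57/L that the labels list under liver. The members are the 39 genes of the carnitine shuttle, mitochondrial beta-oxidation, peroxisomal oxidation and ketogenesis that were listed for this purpose and looked up by their gene symbols, out of 25078 genes in the deposited tables. Ribosome-depleted total RNA was sequenced in 6 libraries, 1 from parental cells with no treatment (wt), 2 from cells that carried a lentiviral scramble vector (scr 25-2 and scr 50-1) and 3 from cells that carried a lentiviral midnolin shRNA vector (knockdown 25-3, 50-2 and 50-5, titled KO in the labels although their treatment is given as shRNA). Both vector groups had been selected with puromycin and single-cell colonies isolated by dilution, which was not done for wt, and all cells were grown in DMEM with fetal bovine serum. The labels name neither the clone behind each library nor the meaning of 25 and 50. They do not say whether the libraries of a group came from separate clones or cultures. The paper describes RNA sequencing of knockdown clones sh1 and sh2 against a scramble control, so the 3 knockdown libraries may not be 3 separate clones. The p-values therefore measure only the spread between these libraries.

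Fatty acids are oxidised mainly in mitochondria, where long chains enter as carnitine esters through carnitine palmitoyltransferases and a carrier in the inner membrane. Inside, acyl-CoA dehydrogenases, a hydratase, a hydroxyacyl-CoA dehydrogenase and a thiolase act in turn to shorten the chain and release acetyl-CoA, and the electrons of the first step pass through the electron transfer flavoprotein. Peroxisomes shorten very long and branched chains with their own oxidases, multifunctional enzymes and thiolases, and hepatocytes can turn the acetyl-CoA of beta-oxidation into ketone bodies.

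The libraries held 25586301 to 33119710 gene counts each. Midn, the targeted gene (chromosome 10 of mm10, 80148272 to 80158368), had an RPKM (read counts scaled for exon length and library size) of 59.6 and 50.8 in scr and of 20.3, 21.8 and 22.1 in knockdown, a log2 fold change of -1.38 (standard error, SE, 0.133), with a false discovery rate (FDR) of 0.00777 after Benjamini-Hochberg adjustment in the quasi-likelihood test of edgeR. In wt the RPKM of Midn was 60.5. Over 14 refits with other settings or 1 library left out, its log2 fold change ran from -1.49 to -1.24. The call was lost in 1 of them. The summed RPKM of 10 hepatocyte markers was 3047 and 4140 in scr and between 217 and 1012 in knockdown. The markers did not share a direction. Ttr, the transthyretin gene and the single marker called in edgeR, was at 119 and 131 in scr and 0.223 to 2.59 in knockdown, and Alb, which was called by DESeq2 and limma but not by edgeR, at 1877 and 2804 against 20.9 to 336. Hnf4a, at 33.9 and 11.0 in scr and 29.6 to 65.5 in knockdown, and Apob, at 3.00 and 1.07 against 4.37 to 52.2, had log2 fold changes above 0 and were not called in edgeR, while DESeq2 called Apob. Of 16 fibroblast, endothelial and leukocyte markers, 13 stayed under an RPKM of 1 in every library. The others were Dcn, Cd68 and Pecam1. Dcn, a fibroblast or stellate marker, was at 409 to 1028 over all libraries. Cd68, a leukocyte marker called by DESeq2 but not by edgeR, was at 3.02 and 4.53 in scr and 6.22 to 9.21 in knockdown. Pecam1, an endothelial marker, was at 2.85 in wt and at most 0.313 in scr and knockdown. In bulk RNA, fewer cells of a type and less RNA per cell cannot be told apart, and the part of the hepatocyte marker difference in the results below was not tested.

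Few fatty acid oxidation genes were called between knockdown and scr, at a share near that of all genes. A gene was called differentially expressed when the FDR was under 0.05 and the fold change at least 1.5 in either direction. Of the 37 members with an RPKM over 1 in at least 1 scr or knockdown library, 3 were called, or 8.11%, beside 10.6% of all 11577 genes tested. Cpt1c rose, Acaa2 and Hsd17b4 fell, and 34 members were not called. Among all genes tested, 5.4% were called higher and 5.23% lower. The median log2 fold change of the 37 members was -0.04, with 15 above 0 and 22 below, and 29 of 37 members lay within 0.5 of 0 on the log2 scale. Among all 11577 genes tested the median was -0.01, and 7285 lay within 0.5 of 0. The 2 members that were not tested, Cpt1b and Acox2, had an RPKM of at most 0.17 and 0.254 in every library. Levels ranged widely between members on the RPKM scale, from those 2 genes up to Acadl, which alone made up 11.3% of the summed scr RPKM of the list.

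**Figure D1:**
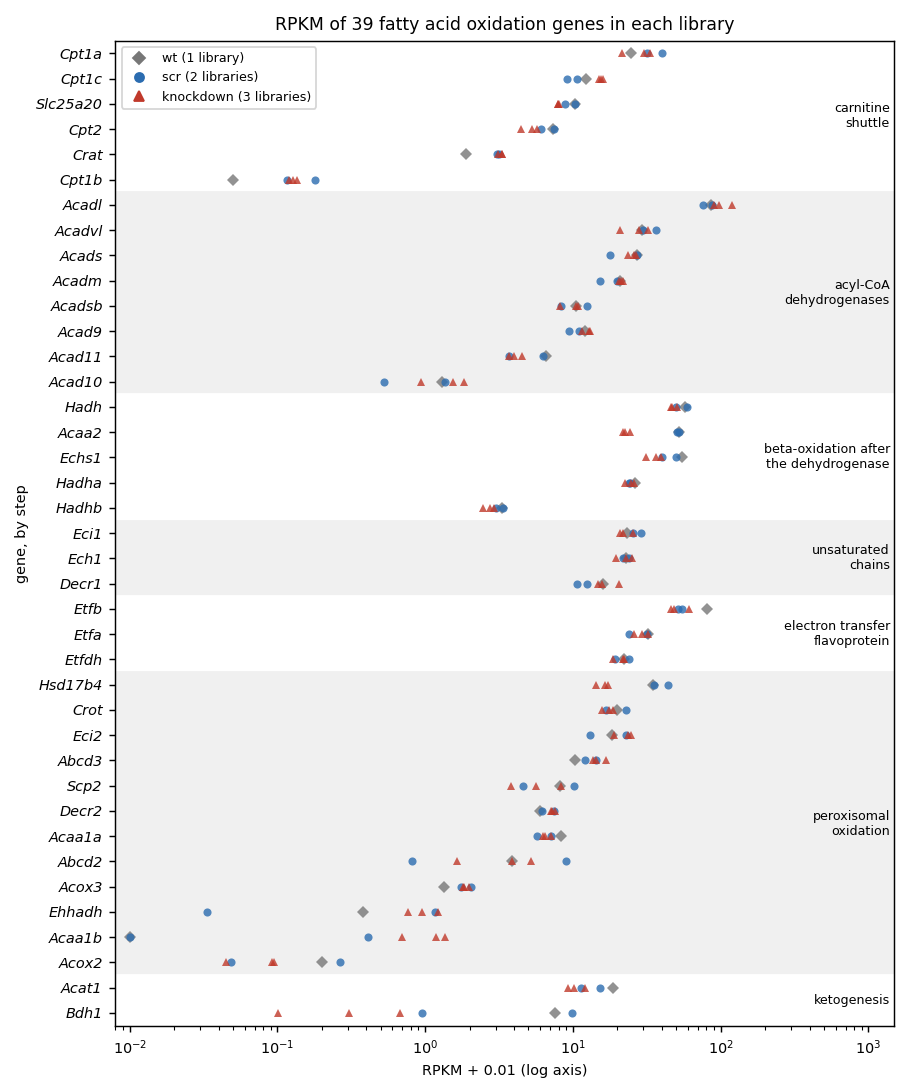
RPKM of each of the 39 fatty acid oxidation genes in each of the 6 libraries, on a logarithmic axis after adding 0.01, with genes grouped by step and ordered by their mean scr RPKM within a step. Points mark single libraries of wt, scr and knockdown, and the 3 knockdown points of Acaa2 (21.7 to 24.2) and Hsd17b4 (14.2 to 17.1) lie apart from the control points of those genes.

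**Figure D2:**
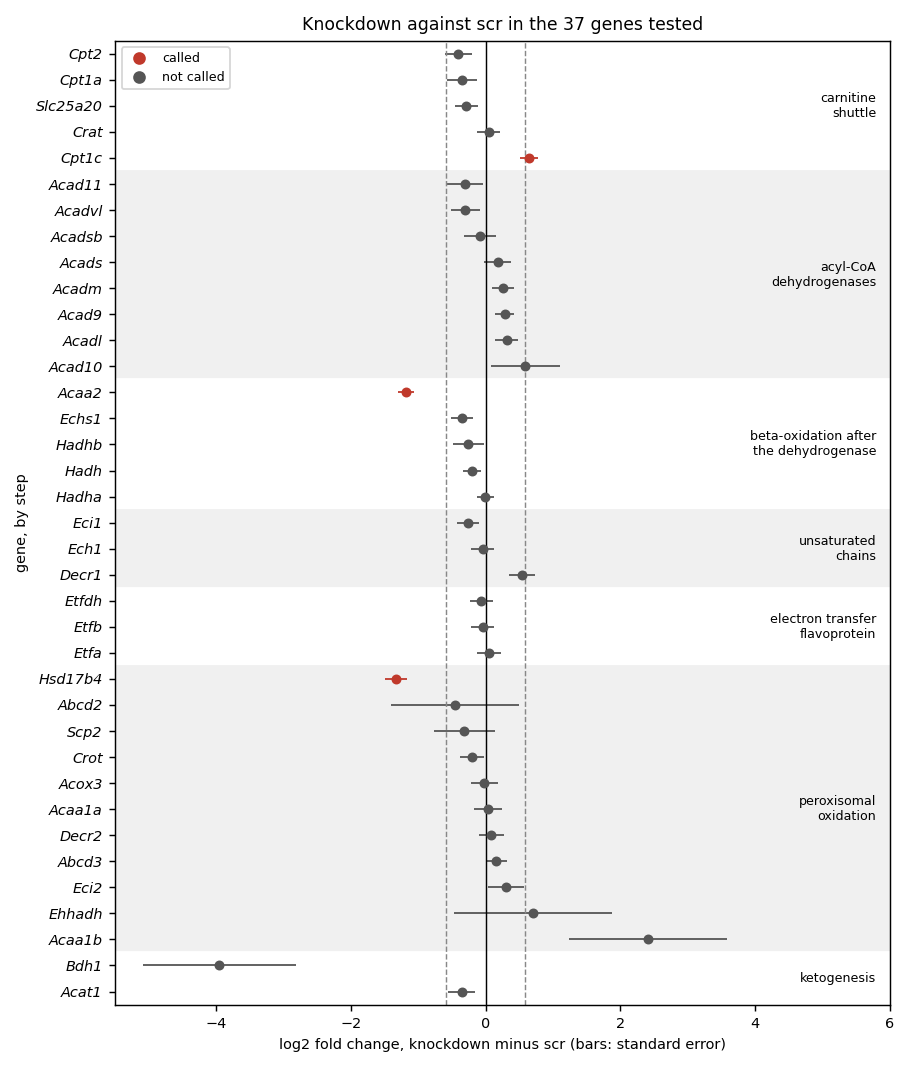
Log2 fold change of knockdown over scr, with its standard error as a bar, for the 37 members tested, grouped by step. The 3 called genes are drawn in red, Cpt1c at 0.64, Acaa2 at -1.19 and Hsd17b4 at -1.33, and the widest bars belong to Bdh1, Acaa1b, Ehhadh and Abcd2.

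In its liver and muscle forms, carnitine palmitoyltransferase 1 lies at the outer mitochondrial membrane and makes the acylcarnitines that enter the mitochondrion. These forms are held back by malonyl-CoA. That role in entry is not assigned to Cpt1c here, and its ratio to Cpt1a is not a measure of entry. The genes of this family were expressed unequally. Cpt1a, the liver form, had an RPKM of 40.3 and 31.6 in scr, of 30.1, 33.5 and 21.5 in knockdown and of 24.9 in wt. The groups overlapped, and the log2 fold change of -0.36 (SE 0.224) did not pass the test (FDR 0.326, edgeR, Benjamini-Hochberg). Cpt1c, the form best known from the brain (chromosome 7, 44959372 to 44974851), had an RPKM of 9.11 and 10.6 in scr, 15.9, 15.1 and 15.5 in knockdown and 12.2 in wt. Every knockdown library lay above every control library, and the log2 fold change was 0.64 (SE 0.136, FDR 0.0407 in the same test). Cpt1c was not called when any 1 of the 3 knockdown libraries was left out (FDR 0.112 to 0.142), nor without scr 25-2 (FDR 0.0581), with a term for the 25 or 50 in the labels (FDR 0.0683) or without the filter on low values (FDR 0.0539), and with wt among the controls its log2 fold change of 0.54 was under the fold threshold. The ratio of Cpt1a to Cpt1c RPKM was 4.42 and 2.99 in scr, 1.89, 2.22 and 1.38 in knockdown and 2.03 in wt, so that wt lay within the knockdown range. Cpt1b, the muscle form, was near 0 throughout.

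The promoters of the expressed pair are shown because 1 of the 2 genes was called and the other was not. Each runs from 250 bases before to 50 bases after the RefSeq transcript start, 5′ to 3′ along the gene, in build GRCm38.p6. Capitals mark AGGTCA, the core half-site that PPAR and other nuclear receptors bind, or its reverse complement TGACCT.
Cpt1c (chr7:44974802-44975101, minus strand): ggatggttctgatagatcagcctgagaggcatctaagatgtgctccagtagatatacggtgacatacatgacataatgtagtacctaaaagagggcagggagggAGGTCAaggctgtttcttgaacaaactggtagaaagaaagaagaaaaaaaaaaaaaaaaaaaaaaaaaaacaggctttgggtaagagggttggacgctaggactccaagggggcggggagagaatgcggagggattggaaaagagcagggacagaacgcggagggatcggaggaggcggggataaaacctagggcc
Cpt1a (chr19:3323051-3323350, plus strand): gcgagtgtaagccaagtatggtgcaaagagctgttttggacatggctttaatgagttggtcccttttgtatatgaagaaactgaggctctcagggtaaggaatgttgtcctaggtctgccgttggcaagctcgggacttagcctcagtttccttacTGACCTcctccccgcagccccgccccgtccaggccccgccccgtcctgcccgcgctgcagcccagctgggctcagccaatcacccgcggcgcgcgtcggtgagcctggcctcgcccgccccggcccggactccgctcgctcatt
AGGTCA began 146 bases before the start in the Cpt1c window, and TGACCT 94 bases before it in the Cpt1a window. The letters were searched on both strands, and 16.3% of 32851 mouse promoter windows hold them. They were found in 6 of the 31 members with a window in the table used. The direct repeat known as DR1, a pair of AGGTCA half-sites with 1 base between them, searched on both strands with up to 2 mismatches, was found in Echs1, Etfa, Slc25a20 and Acox2, against 3.86% of all windows, and without mismatch in 0 members against 0.0396% of all windows. The receptor half-site TNAAGGTCA, which contains AGGTCA, was also found in 0 members, against 1.28% of all windows. No window was given for Acaa2 or Hsd17b4.

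The rest of the shuttle was low or little changed. Cpt2, which turns acylcarnitines back to acyl-CoA inside the mitochondrion, had an RPKM of 6.09 and 7.48 in scr, of 5.31, 5.70 and 4.46 in knockdown and of 7.34 in wt. Slc25a20, the carnitine-acylcarnitine carrier, had an RPKM of 8.85 and 10.4 in scr and of 7.87 to 8.01 in knockdown. In both genes the groups did not overlap, with knockdown lower, as in 24.5% of all genes tested, but the log2 fold changes of -0.41 and -0.29 did not pass the test (FDR 0.228 and 0.298, edgeR, Benjamini-Hochberg). Crat, which acts on short-chain acyl groups, had a log2 fold change of 0.04.

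None of the 8 acyl-CoA dehydrogenases, which carry out the first step of each round and differ in the chain length they accept, was called in edgeR, beside 10.6% of all genes, and 0 had an unadjusted p under 0.05, beside 3641 of all 11577 genes. DESeq2 and limma also called 0, while over all genes tested DESeq2 called 20.1% and limma 10.4% and 10% with pseudocounts of 0.1 and 1. Their log2 fold changes ran from -0.31 to 0.59 with a median of 0.22, and 5 were above 0. Acadl, the long-chain enzyme and the member with the highest RPKM in both groups, was at 87.6 and 76.0 in scr, at 90.6, 97.3 and 119 in knockdown and at 86.6 in wt. Acadm, the medium-chain enzyme, was at 20.003 and 15.2 in scr, at 22.0, 20.5 and 21.2 in knockdown and at 20.8 in wt. Both genes had all knockdown libraries above both scr libraries, as had Acad9, a dehydrogenase that is also needed to assemble respiratory complex I. This was so for 25.7% of all genes tested. The log2 fold changes of Acadl, Acadm and Acad9 were 0.31, 0.26 and 0.28, with an FDR between 0.254 and 0.337 (edgeR, Benjamini-Hochberg), and in Acadm and Acad9 the wt library lay within the knockdown range. Acadvl, the very-long-chain enzyme of the inner membrane, went the other way in its values, with 29.6 and 36.5 in scr against 28.0, 20.8 and 32.2 in knockdown, and the groups overlapped.

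After the dehydrogenase step the only call was at the thiolase. Acaa2, the mitochondrial 3-ketoacyl-CoA thiolase that releases acetyl-CoA (chromosome 18, 74779212 to 74806207), had an RPKM of 50.6 and 52.3 in scr, 24.2, 22.6 and 21.7 in knockdown and 52.3 in wt. The 3 control values lay close together and well above every knockdown value. Its knockdown mean was 22.8 ± 1.29 (SD, n = 3) and its scr mean 51.5 ± 1.203 (SD, n = 2), and the log2 fold change was -1.19 (SE 0.119, FDR 0.00777, edgeR, Benjamini-Hochberg). Acaa2 fell from rank 4 to rank 10 among the members by mean RPKM. Without knockdown 50-2 its log2 fold change was -1.17 and the FDR 0.0557.

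The other enzymes of this stretch did not pass the test. All 5 log2 fold changes were below 0, as were those of 5898 of all 11577 genes tested. That of Hadha changed sign in some refits. Echs1, the short-chain hydratase, had an RPKM of 40.1 and 50.2 in scr, of 31.4, 39.2 and 36.4 in knockdown and of 55.0 in wt. Its groups did not overlap, and its log2 fold change was -0.35 (SE 0.163, FDR 0.202, edgeR, Benjamini-Hochberg). Hadh, the short-chain hydroxyacyl-CoA dehydrogenase and the gene with the highest scr level among these enzymes, had an RPKM of 59.3 and 49.6 in scr and of 46.0 to 50.6 in knockdown, with overlap. Hadha and Hadhb encode the subunits of the trifunctional protein, which takes long chains through these steps at the inner membrane. Hadha had an RPKM of 24.5 and 24.1 in scr and of 22.5, 24.7 and 25.9 in knockdown, a log2 fold change of -0.01 (SE 0.127). Hadhb, at 3.36 and 3.03 in scr and 2.46 to 2.90 in knockdown, had a log2 fold change of -0.26 and no overlap.

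The auxiliary enzymes that move or reduce double bonds of unsaturated chains, Eci1, Decr1 and Ech1, and the electron transfer flavoprotein with its dehydrogenase, Etfa, Etfb and Etfdh, gave no call among 6 genes in edgeR, DESeq2 or limma (10.6%, 20.1% and 10% to 10.4% of all genes), and 1 of them, Decr1, had an unadjusted p under 0.05. Decr1, the 2,4-dienoyl-CoA reductase, had an RPKM of 12.5 and 10.7 in scr, of 14.9, 15.6 and 20.5 in knockdown and of 15.9 in wt, and its log2 fold change of 0.54 had an FDR of 0.129 (edgeR, Benjamini-Hochberg). Eci1, the enoyl-CoA isomerase, was highest of these 3 auxiliary enzymes in scr, at 25.5 and 28.7, and was at 25.5, 20.7 and 21.9 in knockdown. Etfb, the beta subunit of the flavoprotein, was at 51.4 and 54.6 in scr, 46.0, 48.1 and 61.2 in knockdown and 81.3 in wt, which was 153% of the scr mean. The log2 fold changes of Etfa, Etfb and Etfdh lay between -0.07 and 0.05.

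Peroxisomal oxidation held the call with the largest fold change of the list. Hsd17b4, the D-bifunctional protein that carries the hydratase and hydroxyacyl-CoA dehydrogenase steps for very long and branched chains (chromosome 18, 50128201 to 50196270), had an RPKM of 44.1 and 35.5 in scr, 17.1, 14.2 and 16.4 in knockdown and 35.1 in wt. All 3 knockdown values lay under every control value, and the means were 39.8 ± 6.10 (SD, n = 2) in scr and 15.9 ± 1.53 (SD, n = 3) in knockdown. The log2 fold change was -1.33 (SE 0.161, FDR 0.0116, edgeR, Benjamini-Hochberg), and the gene went from rank 6 to rank 18 among the members. The call was lost without knockdown 25-3 (FDR 0.0535) and without knockdown 50-2 (FDR 0.0678), with log2 fold changes of -1.39 and -1.25.

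Ehhadh, the L-bifunctional protein that is a classical target of PPAR alpha, was scarce and uneven. It had 102 counts in scr 25-2 and 2 counts in scr 50-1, and 72, 92 and 120 counts in knockdown, which correspond to an RPKM of 1.151, 0.023, 0.757, 0.946 and 1.205. The scr libraries alone were 49.4-fold apart, with knockdown 25-3 and 50-2 between them, and the log2 fold change of 0.70 had a standard error of 1.17. Against scr 50-1 alone it was 5.30 and called (FDR 0.00861, edgeR, Benjamini-Hochberg), and against scr 25-2 alone it was -0.26 and not called.

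The peroxisomal thiolases were not called. Acaa1a, the thiolase with the higher level, had an RPKM of 7.15 and 5.69 in scr and of 6.23 to 7.15 in knockdown, a log2 fold change of 0.03. Acaa1b, a close paralogue also on chromosome 9 whose counts are uncertain because reads of near-identical sequence could be split between the copies, had 0 and 19 counts in scr and 62, 73 and 38 in knockdown. Its log2 fold change of 2.41 had a standard error of 1.18 and an FDR of 0.223 (edgeR, Benjamini-Hochberg), and it was called only when scr 50-1 was left out, against a library at 0 counts. Scp2, whose longer product is a thiolase for branched chains, had an RPKM of 4.57 and 10.1 in scr and of 8.34, 5.66 and 3.82 in knockdown. The groups overlapped.

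Of the peroxisomal transporters, Abcd3, for branched and long-chain dicarboxylic acyl groups, had an RPKM of 12.1 and 14.4 in scr and of 13.7 to 16.7 in knockdown. Abcd2, a transporter of very long chains, had an RPKM of 0.805 and 8.90 in scr, of 5.21, 3.84 and 1.62 in knockdown and of 3.84 in wt, so that the scr values bracketed the others. The remaining peroxisomal members tested, Acox3, Eci2, Decr2 and Crot, had log2 fold changes between -0.20 and 0.30, and none was called.

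Of the ketogenesis members, Bdh1, the mitochondrial 3-hydroxybutyrate dehydrogenase (chromosome 16, 31422297 to 31458901), had the lowest log2 fold change of all members but was not called. It had 93 and 941 counts in scr, 70, 32 and 10 in knockdown and 654 in wt, which correspond to an RPKM of 0.948 and 9.91, of 0.665, 0.297 and 0.0907, and of 7.53. Every knockdown library was below every control library, and scr 25-2 was closer to the knockdown libraries than to scr 50-1 on this scale. The log2 fold change was -3.96 (SE 1.14, FDR 0.0778, edgeR, Benjamini-Hochberg). It was called without scr 25-2 (-4.82, FDR 0.0155), with wt among the controls (-4.13, FDR 0.0346) and with DESeq2 (-3.96, adjusted p = 0.00109). It was not called in the other 10 refits that tested it, down to -1.79 under limma with a pseudocount of 1, and without scr 50-1 it fell under the RPKM filter and was not tested. Acat1, which condenses or cleaves acetoacetyl-CoA, was at 15.3 and 11.3 in scr, 9.28, 10.1 and 12.1 in knockdown and 18.6 in wt, with overlap of knockdown and scr. Oxct1, with which cells outside the normal liver use ketone bodies, was at 79.0 and 85.1 in scr, 58.1, 64.9 and 43.7 in knockdown and 83.6 in wt, a log2 fold change of -0.58 that missed the threshold (FDR 0.1002, edgeR, Benjamini-Hochberg). Of the 4 ketone body enzymes tested outside the list, 0 were called in edgeR, DESeq2 or limma, and 1, Oxct1, had an unadjusted p under 0.05 in edgeR.

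The steps were also compared by their summed level. RPKM was added over the members of a step in each library, as a description without a test. For the 5 enzymes after the dehydrogenase the sum was 178 and 179 in scr, 131, 135 and 134 in knockdown and 194 in wt, and the knockdown mean was 74.7% of the scr mean. Without Acaa2 it was 86.9%, and the groups still did not overlap. The 12 peroxisomal members summed to 115 and 123 in scr and to 104, 94.2 and 95.8 in knockdown, 82.2% of scr. Without Hsd17b4 the peroxisomal sum was 79.3 ± 11.5 (SD, n = 2) in scr and 81.9 ± 3.90 (SD, n = 3) in knockdown, with overlap. The dehydrogenases were at 186 and 177 in scr, 194, 190 and 228 in knockdown and 194 in wt. The shuttle, the auxiliary enzymes and the flavoprotein overlapped between groups, at 92.1%, 101% and 99.2% of scr. The ketogenesis pair was at 58.0% of scr, without overlap. Over all members the sum was 727 ± 3.80 (SD, n = 2) in scr and 670 ± 31.8 (SD, n = 3) in knockdown, and without Acaa2 and Hsd17b4 it was 636 ± 1.10 and 631 ± 31.7, with overlap.

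**Figure D3:**
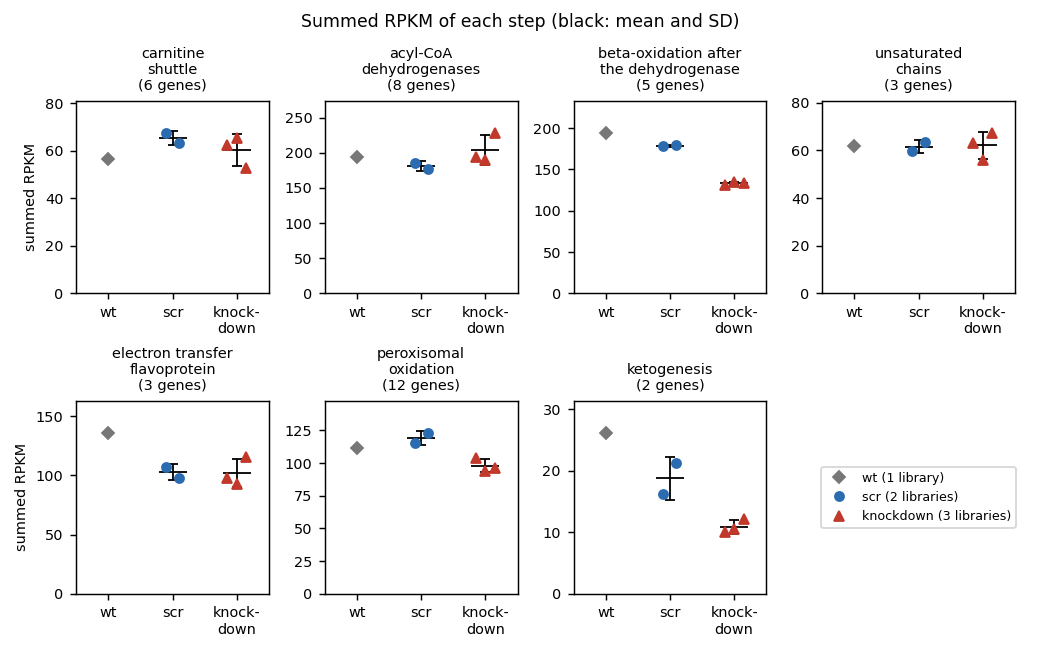
Summed RPKM of the members of each of the 7 steps in each library, on linear axes that start at 0, with 1 panel per step. Points are single libraries of wt, scr and knockdown and horizontal lines are the means of scr and knockdown, and the step after the dehydrogenase (131 to 135 in knockdown against 178 and 179 in scr) and the peroxisomal step are lower in all knockdown libraries.

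The spread between the scr libraries bounded what could be seen. For 22 of the 37 members, or 59.5%, the log2 ratio of the higher to the lower scr library was larger than the size of the log2 fold change, beside 48.5% of all genes tested. The median ratio between the scr libraries was 1.24 over the members and 1.26 over all genes. At least 2-fold differences between the scr libraries were found in 6 members (16.2%, beside 14.2% of all genes), of which Ehhadh, Abcd2, Acaa1b and Scp2 are peroxisomal, and the others are Bdh1 and Acad10. Knockdown libraries were at least 2-fold apart in 3 members, Abcd2, Scp2 and Bdh1, beside 9.8% of all genes. The direction of the scr difference was not shared, with Ehhadh and Acad10 higher in scr 25-2 and Abcd2, Acaa1b, Scp2 and Bdh1 higher in scr 50-1. In the called genes the scr libraries were 1.03-fold apart in Acaa2, 1.16-fold in Cpt1c and 1.24-fold, the median of the members, in Hsd17b4.

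**Figure D4:**
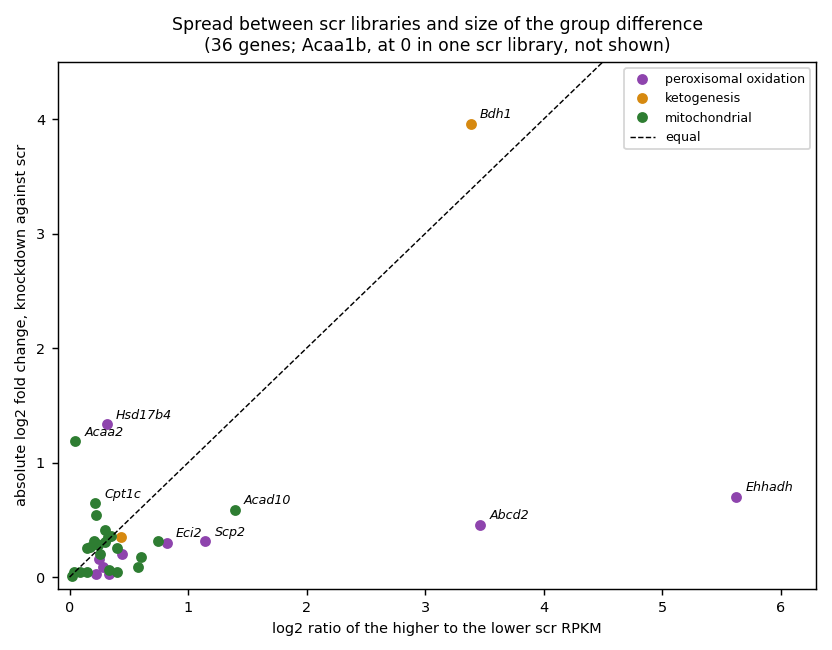
Size of the log2 fold change between knockdown and scr, on the vertical axis, against the log2 ratio of the higher to the lower scr library, on the horizontal axis, for 36 members. Acaa1b, listed at 0 in 1 scr library, is left out, the dashed line marks equal values, and Acaa2 and Hsd17b4 lie well above the line while Ehhadh and Abcd2 lie far under it.

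Over all members, 13 of 37 (35.1%) had knockdown and scr libraries that did not overlap, beside 50.2% of all genes tested. Of these, 7 were lower in knockdown (Cpt2, Slc25a20, Echs1, Hadhb, Acaa2, Hsd17b4 and Bdh1) and 6 higher (Cpt1c, Acadl, Acadm, Acad9, Decr1 and Acaa1b). With wt counted as a further control library, Acadm, Acad9 and Decr1 overlapped, which left 7 members lower and 3 higher without overlap, beside 19.5% and 20.2% of all genes. The wt library was at least 1.5-fold from the scr mean in 4 members, beside 18.4% of all genes. These were Etfb, Crat, Ehhadh and Acaa1b, with Etfb higher in wt, Crat and Ehhadh lower, and Acaa1b listed at 0.

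Both genes called lower lie on chromosome 18, 1 of 5 chromosomes, with 8, 12, 16 and X, whose median log2 fold change was at or under -0.30. Of its 309 genes tested, 16.8% were called lower, beside 5.23% of all genes, and its median log2 fold change was -0.38. The median log2 ratio to the scr mean over chromosome 18 was -0.40, -0.40 and -0.43 in the knockdown libraries and -0.13 in wt. Within 5 Mb of Acaa2, 35 tested genes had a median of -0.54, and Acaa2 was at -0.65 relative to that median. Within 5 Mb of Hsd17b4, 20 tested genes had a median of -0.35, and Hsd17b4 was at -0.99 relative to it. Chromosome 16, which carries Bdh1 and Ehhadh, had a median of -0.47 with 23.8% called lower, and Bdh1 was at -3.58 relative to its neighbours. Cpt1c was at 0.69 relative to a neighbourhood median of -0.05. Decr1 and Acadl were at 0.03 and 0.02 once medians of 0.51 and 0.29 were taken off, while Cpt1a, with a neighbourhood median of 0.25, moved from -0.36 to -0.61. The part of chromosome dosage in these differences was not tested.

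Genes that control oxidation were read from lists outside the members. Of 11 regulators tested, 1 rose and 1 fell (18.2% called, beside 10.6% of all genes), and the median of their log2 fold changes was -0.06. The gene that rose passed the RPKM filter only through knockdown libraries. Ppargc1a, the coactivator PGC-1 alpha that drives mitochondrial oxidation genes (chromosome 5, 51454249 to 51567725), had an RPKM of 0.304 and 0.032 in scr, 4.14, 4.07 and 5.97 in knockdown and 0.0698 in wt. Knockdown lay above every control library, with a log2 fold change of 4.79 (SE 0.865, FDR 0.0284, edgeR, Benjamini-Hochberg), and the call was lost when any 1 knockdown library was left out (FDR 0.0903 to 0.101). The size of its fold change rested on the scr libraries, at 7.18 without scr 25-2 and 3.94 without scr 50-1 on the log2 scale, both called. Pparg, the adipogenic PPAR, was at 9.48 and 12.2 in scr, 6.06, 6.395 and 6.14 in knockdown and 10.1 in wt, a log2 fold change of -0.81 (SE 0.176, FDR 0.0429, same test), which was lost when any 1 knockdown library was left out (FDR 0.115 to 0.160) and without scr 50-1 (FDR 0.0860), with a term for 25 or 50 (FDR 0.0617) or without the filter on low values (FDR 0.0523). Ppara itself, the receptor that controls many of these genes in liver, was at or under an RPKM of 0.378 in every library and was not tested. Of the 2 tested enzymes of malonyl-CoA control, 0 were called in edgeR, DESeq2 or limma and 0 had an unadjusted p under 0.05.

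Genes known as PPAR alpha targets outside oxidation held 3 genes that rose. Of 12 listed, 7 were tested and 3 (42.9%) were called, all higher, beside 5.4% of all genes, and the median log2 fold change was 2.75. Among those tested, Pdk4, Vnn1 and Cidec passed the RPKM filter only through knockdown libraries. The list was also chosen with earlier results known, so no conclusion is drawn from its share and median. Pdk4, the kinase that holds back pyruvate dehydrogenase, had an RPKM of 0.266 and 0.620 in scr, 5.13, 5.81 and 5.52 in knockdown and 1.36 in wt. Angptl4, a secreted inhibitor of lipoprotein lipase, was at 3.46 and 2.88 in scr, 14.1, 31.99 and 18.6 in knockdown and 8.36 in wt. In both genes wt lay between scr and knockdown. Their log2 fold changes were 3.62 (SE 0.409, FDR 0.0101) and 2.75 (SE 0.405, FDR 0.0173, both from edgeR), and each call was lost without 1 library, Pdk4 without knockdown 50-2 (FDR 0.0555) and Angptl4 without knockdown 50-5 (FDR 0.0575). Over 14 refits the log2 fold change ran from 2.18 to 4.35 in Pdk4 and from 2.14 to 2.98 in Angptl4. The scr libraries of Pdk4 were 2.33-fold apart. Vnn1, a pantetheinase, was at 0.337 and 0.160 in scr, 3.24, 2.55 and 6.59 in knockdown and 2.00 in wt, a log2 fold change of 4.03 (FDR 0.0203, same test). With wt among the controls it was 2.33 and not called (FDR 0.120), and it was not called without knockdown 25-3 or 50-2 (FDR 0.0712 and 0.0643). Of the others tested, Acot1 and Txnip had log2 fold changes of -0.89 and -0.53 and were not called, and the 5 genes not tested had at most 1 count in every library. DESeq2 also called Plin2 and Cidec, 5 of the 7 in all, beside 20.1% of all genes. Whether these genes and the members differ in response was not tested.

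**Figure D5:**
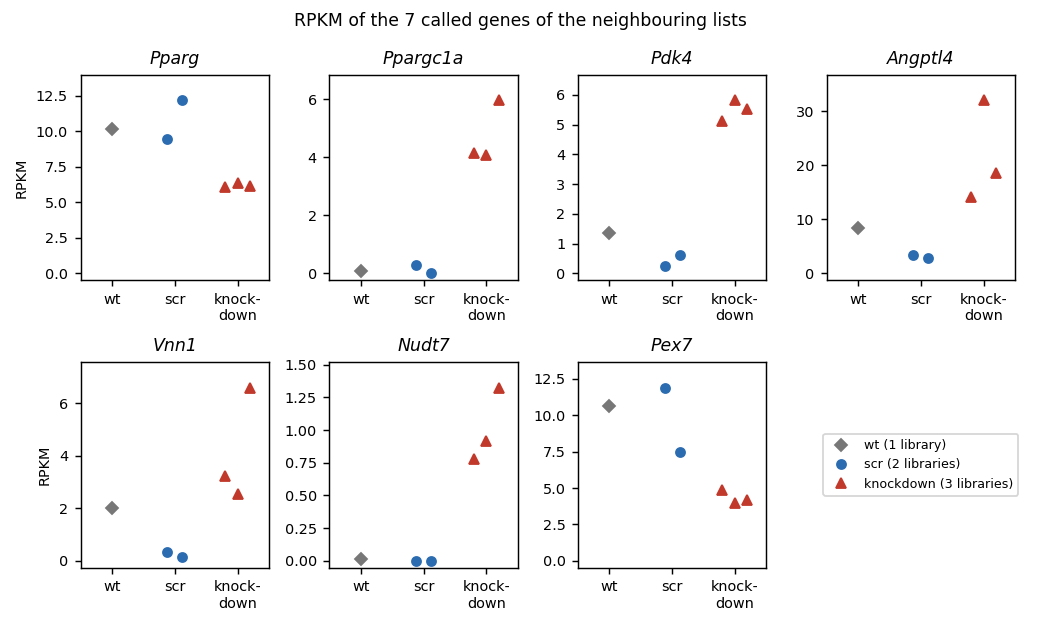
RPKM in each library, on linear axes, for the 7 called genes of the pathway lists read beside the members (cell type markers not included), Ppargc1a, Pparg, Pdk4, Angptl4, Vnn1, Nudt7 and Pex7, with 1 panel per gene. Points are single libraries of wt, scr and knockdown, and in every panel the 3 knockdown libraries lie on 1 side of both scr libraries and of wt.

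The other genes of the peroxisome held few calls in edgeR and more in DESeq2. Of 16 peroxisome biogenesis genes, 1 (6.25%, beside 10.6% of all genes) was called, with knockdown lower, and the median log2 fold change was 0.08. Pex7, the receptor that imports proteins with the second type of targeting signal, thiolase among them, was at 11.9 and 7.47 in scr, 4.86, 4.004 and 4.18 in knockdown and 10.6 in wt. Its log2 fold change was -1.17 (SE 0.260, FDR 0.0462, edgeR, Benjamini-Hochberg), and the call was lost when any 1 knockdown library was left out (FDR 0.125 to 0.172) without scr 25-2 (-0.78, FDR 0.0731) and with a term for 25 or 50 (FDR 0.0597). Of 18 other peroxisomal enzymes and carriers tested, 11 had an unadjusted p under 0.05 in edgeR, beside 3641 of all 11577 genes. Without overlap, 7 were lower and 4 higher in knockdown, or 61.1%, beside 50.2% of all genes. In this list 1 gene (5.56%) was called, Nudt7, a peroxisomal hydrolase of coenzyme A. It had 0 counts in both scr libraries and 78, 94 and 139 in knockdown, at least 30.8-fold higher against a floor of 3 counts in each scr library, and the call was lost without knockdown 50-2 (FDR 0.0548, same test). DESeq2 called 7 of these 18 genes, Nudt7 among them, and 2 of the 16 biogenesis genes, Pex7 and Pex11g, beside 20.1% of all genes.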

How the data were processed

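Reads were mapped to mm10 by the authors with TopHat2, and counts per RefSeq gene were made with HTSeq (version 0.6.1p1 in the submitters' processing notes) and deposited as raw values. Whether counting used strand is not given in the sources used here, which makes counts of overlapping genes uncertain. Counts of close paralogues are uncertain for another reason, as reads of near-identical sequence could be split between the copies. A table of RPKM, scaled by TMM in edgeR, was deposited by the authors too, and its values were found to equal count over exon length times a single factor for each library. Testing covered the genes above an RPKM of 1 in at least 1 of the 5 scr and knockdown libraries and was done on the counts with the quasi-likelihood test of edgeR 4.0.16 in R 4.3.3, with TMM and Benjamini-Hochberg adjustment over all 11577 genes. All 3 libraries given as midnolin shRNA entered, and wt, a single library, was not tested. The call required FDR under 0.05 and 1.5-fold or more. The standard error is the absolute log2 fold change over the square root of F. The common biological coefficient of variation was 0.272, which exceeds counting error for most genes described, and the share of counts on the ribosomal transcript Rn45s was 10.1% to 13.1%.

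The members, steps and other gene lists were chosen with earlier results of these data known. Named genes were Midn, every called member, the member of each step with the highest scr RPKM, the textbook enzymes of each step, members at least 1.5-fold apart without overlap, and the called genes of each other pathway list. Further members, marker genes, Oxct1, Ppara, Ppard, Esrra and genes that only DESeq2 called were named for completeness after their values were seen. Some genes of the other lists are not reported here. Promoters came from RefSeq (GRCm38.p6), with 31 of 39 members matched. The 15 alternatives included DESeq2 1.42.0, limma 3.58.1 on log2 RPKM with pseudocounts of 0.1 and 1 (for this the deposited RPKM was put on a log2 scale), other size factors and filters, wt among the controls or as its own group, a term for 25 or 50, the median of neighbouring genes within 5 Mb subtracted, and each library left out. Figures were drawn with matplotlib 3.10.9, and tables were handled with pandas 2.3.3 in Python 3.11.15.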

Additional observations from a re-analysis of the deposited data

How the results depend on the processing

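No paired analysis was possible because no full replicate label is shared between groups. The labels share only 25 or 50, which is not explained, and a term for it left 2 of the 3 members called. Of 11577 genes tested, 1230 were called, and the count was 2322 with DESeq2 (1167 higher, 1155 lower), 807 with a term for 25 or 50, and between 131 and 2273 when 1 library was left out. It was 131 without knockdown 50-2, 259 without knockdown 25-3, 346 without knockdown 50-5 and 2273 without scr 25-2, and the cause was not tested. The number of members called, 3, ran from 0 to 4 when 1 library was left out, with 0 without knockdown 50-2 and 1 without knockdown 25-3. The 4 without scr 25-2 were Acaa2, Hsd17b4, Bdh1 and Ehhadh, and the 4 without scr 50-1 were Acaa2, Hsd17b4, Cpt1c and Acaa1b. The number stood between 2 and 4 under the other alternatives. When 1 scr library was left out, the lone sample was assumed to vary like the knockdown libraries. Acaa2 stayed between -1.23 and -1.14 and Hsd17b4 between -1.48 and -1.15 on the log2 scale in 14 refitted alternatives, with FDRs under 0.05 in 13 and 12 of them, and Cpt1c between 0.54 and 0.76 with an FDR under 0.05 in 8.

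Log2 fold changes of 16 genes that were not called changed sign in some refits. Hadha went to 0.0014 and 0.0015 under limma with pseudocounts of 0.1 and 1, and to 0.0015 with wt as its own group, and Abcd2 to 0.21 and 0.021 under the same limma fits. With wt among the controls, Etfa went to -0.011, Acox3 to 0.13 and Acaa1a to -0.098. With 1 library left out, the range was -0.081 to 0.51 for Acads, -0.64 to 0.13 for Acad11, -0.35 to 0.25 for Acadsb, -0.059 to 0.042 for Hadha, -0.13 to 0.058 for Ech1, -0.14 to 0.28 for Etfa, -0.19 to 0.028 for Etfb, -0.22 to 0.12 for Etfdh, -1.32 to 2.13 for Abcd2, -0.13 to 0.11 for Acox3, -0.26 to 5.30 for Ehhadh, -0.13 to 0.22 for Acaa1a, -0.76 to 0.37 for Scp2, -0.039 to 0.76 for Eci2, -0.052 to 0.25 for Decr2 and -0.41 to 0.051 for Crot. After the median of neighbouring genes was subtracted, Crat was at -0.013, Ech1 at 0.0016, Etfa at -0.067, Etfb at 0.029, Etfdh at 0.33 and Abcd3 at -0.031, each with its sign turned. With 2 scr libraries, the direction of Ehhadh and Abcd2 was not settled, nor was the size of the difference in Acaa1b and Bdh1. The scr libraries differed strongly in these genes. Counts were as low as 2 in scr 50-1 for Ehhadh and were 0 and 19 in scr for Acaa1b. The part of low counts in this was not tested.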

Other observations

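Other mitochondrial pathways, the TCA cycle and propionyl-CoA and branched-chain oxidation, held no called gene in edgeR's quasi-likelihood test with Benjamini-Hochberg adjustment. Of all 11577 genes tested, 3641 had an unadjusted p under 0.05 and 1230 were called. Of 17 genes of the TCA cycle, 0 were called and 6 had an unadjusted p under 0.05, a share close to that of all genes, while DESeq2 called 2 (Fh1 and Suclg2) and limma 0, with a median log2 fold change of 0.16 and 13 above 0. Fh1, fumarate hydratase, had an RPKM of 56.3 and 51.8 in scr, 85.1, 74.7 and 99.6 in knockdown and 92.8 in wt, so that wt lay with the knockdown libraries. Suclg1, a subunit of succinyl-CoA synthetase, had 43.3 and 45.9 in scr, 73.9, 66.4 and 60.7 in knockdown and 65.3 in wt. Suclg2, another subunit, had 7.53 and 6.53 in scr and 11.6, 11.0 and 9.99 in knockdown. Its wt value of 9.64 was below every knockdown library. Of 16 tested genes of propionyl-CoA and branched-chain oxidation, 0 were called and 3 had an unadjusted p under 0.05, with a median of -0.09, while DESeq2 called 2 (Pccb and Hsd17b10) and limma 1 (Pccb). Pccb, the beta subunit of propionyl-CoA carboxylase, had 8.28 and 7.37 in scr, 3.58, 2.15 and 1.36 in knockdown and 8.43 in wt, and its log2 fold change of -1.74 missed the threshold (FDR 0.0508, edgeR, Benjamini-Hochberg). The genes given with values here were named after their values were seen.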
